A study of Hydra vulgaris with 22 samples.

Results

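The medium eGFP gate of Hydra interstitial stem cells (ISC_medium, n = 3 libraries) was compared with the high eGFP gate of the same transgenic line (ISC_high, n = 4 libraries). Hydra vulgaris is a freshwater polyp, and all libraries were from the AEP strain. The 7 libraries are those that the labels place in the cnnos1::eGFP line with a medium or a high GFP selection, out of 22 libraries in all. In that line eGFP, a fluorescent reporter protein, is driven by cnnos1, a nanos gene promoter, and the labels name interstitial stem cells as the cells that carry it. Tissue came from the central part of the body column, without its apical and basal ends, of animals fed 3 times per week and not otherwise treated, and eGFP-bearing cells were taken by fluorescence-activated cell sorting. ISC_medium replicates A, B and C had been without food for 5, 3 and 3 days, and ISC_high replicates A, B, C and D for 2, 3, 3 and 5 days. The labels give neither the limits of the gates nor the number of cells or animals behind a library. They do not say that replicates came from separate cultures, so p-values measure only the spread between libraries, which may be technical. That spread was estimated from all 20 sorted libraries, epithelial ones included. The features compared were stems, that is, contig identifiers without their isoform number, with the counts of all contigs of a stem added up. Of 44306 stems, 18288 had enough counts to be tested, and they held at least 99.7% of the counts of every sorted library.

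Interstitial stem cells lie between the epithelial cells of the body column and give rise to nerve cells, stinging cells (nematocytes), gland cells and germ cells. Their dividing offspring pass through intermediate stages in the body column before they differentiate, and many nematocytes end up mounted inside epidermal epithelial cells. Nanos proteins are RNA-binding repressors of translation found in germline and multipotent stem cells, and a fluorescent protein made from a nanos promoter can persist in a cell after the promoter falls silent.

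Some groups outside the gates are used below only to describe stems. Sorted epidermal (eESC) and gastrodermal (gESC) epithelial stem cells came from actin::eGFP animals after 3 days without food (eESC_3d, n = 3; gESC_3d, n = 3) or 10 days (eESC_10d, n = 4; gESC_10d, n = 3). There were also 2 unsorted body columns after 10 days without food, 1 of an actin::eGFP line and 1 of the cnnos1::eGFP line. For the cnnos1 body column the label gives gastrodermal cells as the eGFP carriers, so only its line is used as its name. Unsorted tissue holds every cell type of the body column, sorted or not.

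ISC_medium libraries held 18559123 to 20327106 counts and ISC_high libraries 25195891 to 29383766. Among the 20 sorted libraries, 8 had at most 20327106 counts and 12 had at least 25195891. All ISC_medium libraries were in the shallower class and all ISC_high libraries in the deeper one, so gate and depth class cannot be told apart within the 7 libraries. Levels are CPM, counts relative to the TMM-scaled size of their library, and are not divided by transcript length, so they are compared between libraries for a stem and not between stems. A count of 3, taken as the floor, was 0.148 to 0.162 CPM before scaling in ISC_medium and 0.102 to 0.119 CPM in ISC_high. Spearman correlations of stem levels were 0.968 to 0.979 among ISC_medium libraries, 0.971 to 0.981 among ISC_high libraries and 0.909 to 0.937 between libraries of the 2 gates. The first principal component of the 7 libraries held 67.1% of the variance, with scores of 90.3 to 104 in ISC_medium and -81.2 to -56.3 in ISC_high. ISC_high C lay nearest to the medium gate on it, and some results below are also given without it. None of the 61501 contig identifiers and none of the stems (0 each) matched the 28925 genes of the Hydra reference table, so nanos, GFP and the markers of interstitial cells could not be looked up by name, and stems stand below under their identifiers.

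In the medium gate, 2755 stems were higher (15.1% of those tested) and 3547 were lower (19.4%) than in the high gate, together 6302 calls or 34.5% (edgeR quasi-likelihood test, Benjamini-Hochberg adjusted p under 0.05). Called higher stems had a median log2 fold change of 1.59, and 1189 of them were at least 4-fold and 630 at least 16-fold higher. Called lower stems had a median of -1.10, with 501 at least 4-fold and 63 at least 16-fold lower, so with TMM factors fewer stems rose than fell and more of them by at least 4-fold. The count of 63 became 99 without ISC_medium C. Over all stems tested the median was -0.04. Every ISC_medium library lay above every ISC_high library for 2434 of the stems called higher, and below for 3115 of those called lower. Over all stems tested, gates without overlap were found for 15.6% in the upward and 20.1% in the downward direction.

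The balance between the directions depended on the scaling and on the libraries fitted. Higher stems made up 43.7% of the calls with TMM factors from the 20 sorted libraries, 58.5% in a fit of the 7 interstitial libraries alone and 23.7% when only library size was used. Stems changed at least 4-fold numbered 1012 higher and 1006 lower with library size only, against 978 and 250 in the 7 libraries alone, and those changed at least 16-fold 548 and 96 against 534 and 23. With library size only the median of all stems was -0.43, and stems whose change is smaller than such a shift have a direction that goes with the scaling. A term for the depth class, which can be estimated only because gESC_3d holds 1 deeper library (replicate C), left 1613 calls, 770 higher and 843 lower, and 1430 of them were among the calls above with the same sign. With the interstitial libraries thinned to 18559123 counts each, 6134 stems were called. How much of the difference between the gates goes with depth was not tested beyond these fits.

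**Figure D1:**
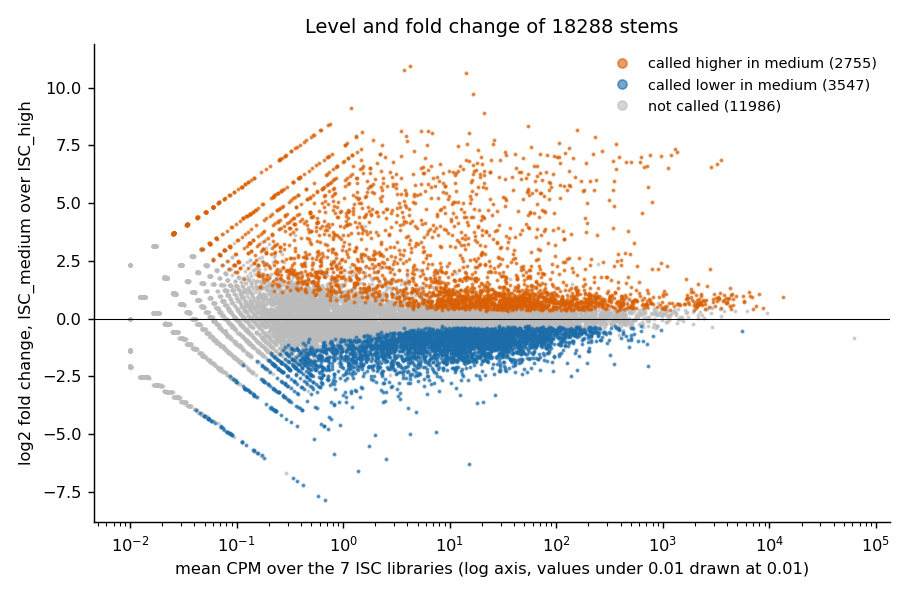
Each point is 1 of the 18288 stems tested, placed by its mean CPM over the 7 interstitial libraries (log axis) and its fitted log2 fold change, ISC_medium over ISC_high. Orange points were called higher (2755), blue points lower (3547) and grey points were not called. Called higher stems extend farther from 0 (to 10.94) than called lower stems (to -7.87), and of the 158 stems of 1000 CPM and above 105 are orange and 1 is blue.

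Calls were not spread evenly over levels. Among stems with a mean under 1 CPM, 636 were higher and 498 lower, of 7629 tested. At 1 to 10 CPM, 668 were higher and 1271 lower, of 4631, and at 10 to 100 CPM, 959 were higher and 1569 lower, of 4651. The direction turned among abundant stems. At 100 to 1000 CPM, 387 were higher and 208 lower, of 1219, and at 1000 CPM and above, 105 were higher and 1 was lower, of 158.

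These 158 abundant stems took 53.8, 49.8 and 51.6% of the counts in ISC_medium A to C, against 43.0, 49.7, 46.3 and 47.6% in ISC_high A to D. Their median level was 3290, 2414 and 2587 CPM in the ISC_medium libraries, against 1511, 1524, 1624 and 1982 CPM in the ISC_high libraries. Medians did not overlap between the gates, whereas ISC_medium B and ISC_high B took nearly the same share of counts. The 158 include c26324_g1, an uncalled stem with 66848 CPM in ISC_medium B and 97348 CPM in ISC_high B. The shares of counts thus rest in part on 1 stem. The median log2 fold change of the 158 was 0.62. Without ISC_medium A, the library with the highest median, it was 0.45 and 64 of the 158 were called higher. With library size alone it was 0.22 (56 higher, 17 lower). With the depth term it was 0.06 (12 higher, 8 lower), and with the interstitial libraries thinned to equal depth 0.67 (111 higher, 1 lower).

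As a set, the 2755 higher stems took 59.7, 54.9 and 58.4% of all counts in ISC_medium A to C, against 35.5, 35.8, 36.1 and 38.9% in ISC_high A to D. The 3547 lower stems took 6.10, 6.65 and 6.37% in ISC_medium, against 16.3, 13.9, 15.0 and 14.5% in ISC_high. These stems were chosen for this difference, so the shares describe them and test nothing. Libraries outside the comparison took no part in that choice. The median level of a higher stem was 18.4 ± 1.0 CPM in ISC_medium (SD, n = 3) and 4.72 ± 0.50 CPM in ISC_high (n = 4). It was 14.9 ± 0.87 CPM in eESC_10d (n = 4), 11.7 ± 1.0 CPM in eESC_3d (n = 3), 6.71 ± 0.71 CPM in gESC_10d (n = 3) and 7.91 ± 1.7 CPM in gESC_3d (n = 3). In the unsorted actin and cnnos1 body columns it was 23.0 and 24.6 CPM. By these medians, stems higher in the medium gate were lowest in the high gate, intermediate in the epithelial sorts, where epidermal cells held more than gastrodermal ones, and highest in unsorted tissue.

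Lower stems were arranged otherwise. Their median level was 5.81 ± 0.58 CPM in ISC_medium (SD, n = 3) and 12.8 ± 1.3 CPM in ISC_high (n = 4). It was 10.2 ± 0.22 CPM in eESC_10d (n = 4), 10.7 ± 0.15 CPM in gESC_10d (n = 3), and 8.96 and 8.00 CPM in the unsorted actin and cnnos1 libraries. These medians of other groups all lay between those of the gates. Few lower stems were scarce in the epithelia: 268 of them (7.56%) were under 1 CPM in all 7 epithelial libraries of the 10-day groups. That share was 11.9% (327) for the higher stems, 26.7% for stems not called and 20.8% for all stems tested. Stems with a mean under 1 CPM in the gates were called in 14.9% of cases, so all stems are not a like background for called sets. Of the 501 stems at least 4-fold lower, 33.3% were scarce by the same rule.

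The 630 stems at least 16-fold higher in the medium gate were examined as a set. They took 6.06, 7.39 and 7.63% of counts in ISC_medium A to C, against 0.0693, 0.0797, 0.261 and 0.0948% in ISC_high A to D. ISC_high C had the largest share within its gate and was the highest of the 4 ISC_high libraries for 349 of the 630 (55.4%). Its share was still below that of every ISC_medium library. In libraries outside the comparison the same stems took 1.76 ± 0.38% in eESC_10d (SD, n = 4), 0.962 ± 0.28% in eESC_3d (n = 3), 0.292 ± 0.083% in gESC_10d (n = 3) and 0.365 ± 0.14% in gESC_3d (n = 3). They took 4.96 and 5.09% in the unsorted actin and cnnos1 body columns. Their shares in the 2 gates follow from how they were chosen and test nothing. Outside the comparison they were sparse in sorted gastrodermal cells, present in sorted epidermal cells and more abundant in unsorted tissue. Fewer cells of a type and less RNA per cell cannot be told apart in such bulk libraries. With the depth term 357 of the 630 were still called higher, and from the 3-day interstitial libraries alone 593 were. Those fits share libraries with the one that chose the 630, so these counts are no separate test. In a fit without ISC_high C, 679 stems were called and at least 16-fold higher.

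The most abundant of them were 18 stems with at least 1000 CPM in ISC_medium. Together they summed to 47280, 50810 and 53210 CPM in ISC_medium A to C, against 215, 251, 1306 and 428 CPM in ISC_high A to D. Their median was 1807, 1876 and 1826 CPM in ISC_medium, against 5.11, 6.43, 50.4 and 15.0 CPM in ISC_high. The ISC_medium medians lay within a narrow band, while the ISC_high medians spread widely, and ISC_high C was the highest of its gate for 18 of the 18 stems. Outside the comparison their median was 267 ± 59 CPM in eESC_10d (SD, n = 4), 152 ± 66 CPM in eESC_3d (n = 3), 48 ± 29 CPM in gESC_3d (n = 3) and 29 ± 14 CPM in gESC_10d (n = 3), and 1081 and 1285 CPM in the unsorted actin and cnnos1 libraries. The median fitted log2 fold change was 6.77, and 7.98 without ISC_high C. With the depth term it was 4.42, and all 18 were still called, in a fit of the same libraries that chose them.

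**Figure D2:**
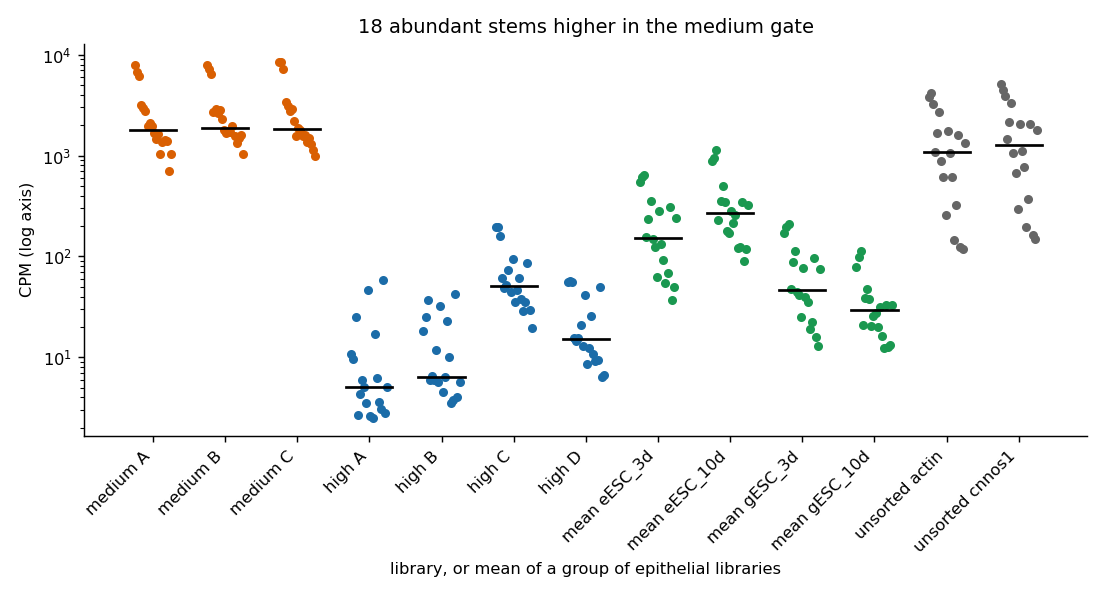
Each point is 1 of the 18 stems with a rise of 16-fold or more and 1000 CPM or more in the medium gate, shown as CPM on a log axis in each interstitial library, as the mean of each epithelial group, and in both unsorted libraries; black bars are medians. The 3 medium libraries have medians of 1807 to 1876 CPM, the 4 high libraries 5.11 to 50.4 CPM with ISC_high C on top, and the unsorted libraries 1081 and 1285 CPM.

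Lists of stems were then read in the comparison of the gates. Their rules compare no interstitial values, but the stems were those tested and the calls behind 2 of the lists came from the fit of all 20 sorted libraries, so interstitial libraries entered the filter, the scaling and the spread. The lists stand in for cell type markers, which could not be fixed by name. Epidermal-leaning stems were those called between eESC_10d and gESC_10d and at least 4-fold higher in eESC_10d (3136 stems, 17.1% of those tested), and gastrodermal-leaning in the reverse case (2374 stems, 13%). Body-column stems were those with at least 1 CPM in both unsorted libraries and at least 4 times the mean of eESC_10d and of gESC_10d, with means under 0.1 CPM taken as 0.1 (535 stems). By this rule whole tissue held them at a higher level than either epithelial sort. Over all 44306 stems 650 met the body-column rule, and 115 of them did not pass the filter on low counts. Lists rebuilt from the epithelial and unsorted libraries alone, an alternative chosen after seeing the data, had 2993 epidermal-leaning (832 higher and 184 lower in the medium gate), 2325 gastrodermal-leaning (136 and 246) and 551 body-column stems (284 and 14) among those tested.

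Of the 535 body-column stems, 274 (51.2%) rose and 14 (2.62%) fell in the medium gate, against 15.1% and 19.4% of all stems tested, with a median log2 fold change of 2.37 against -0.04. Members scarce in the epithelia could pass the filter through the gate where they were high, and 38 of the 535 (15 higher, 3 lower) passed only with the interstitial libraries in it. Without a filter 278 of all 650 were higher and 12 lower, with a median of 2.23. The count of 14 was 8 without ISC_medium C. They took 4.25, 3.91 and 4.56% of counts in ISC_medium A to C, against 0.572, 0.564, 0.593 and 0.723% in ISC_high A to D, and 9.51 and 10.2% in the unsorted actin and cnnos1 libraries. Shares did not overlap between the gates, and both lay below unsorted tissue. With the depth term 148 were higher and 1 was lower, against 770 and 843 of all 18288 stems tested.

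Epidermal-leaning stems were called higher more often than lower, with 883 (28.2%) against 203 (6.47%), where 15.1% and 19.4% of all stems tested were. They took 7.74, 9.22 and 9.41% of counts in ISC_medium A to C, against 1.44, 1.27, 1.495 and 1.27% in ISC_high A to D. In eESC_10d they took 15.3 to 19.5%. Their median log2 fold change was only 0.25, and it was 0 without ISC_medium C and 0.46 without ISC_high B. Many were scarce in both gates, and 1879 of the 3136 were under 1 CPM in every interstitial library, where folds come from few counts.

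Of 2374 gastrodermal-leaning stems, 139 (5.86%) were higher and 257 (10.8%) lower, against 15.1% and 19.4% of all stems tested, with a median of 0. With the depth term 51 were higher and 53 lower, and with library size alone 100 and 399. Over all 18288 stems tested, these fits called 770 higher and 843 lower, and 1783 and 5756. Gastrodermal-leaning stems took 0.531 to 0.573% of counts in ISC_medium and 0.824 to 0.913% in ISC_high, against 15.7 to 18.3% in gESC_10d. Many were scarce in both gates, and 1584 of the 2374 were under 1 CPM in every interstitial library, where folds come from few counts. Among those with a mean of at least 5 CPM in the gates, 36 of 235 were higher and 80 lower, with a median of -0.15. Over all stems at that level, 1952 of 7470 were higher and 2548 lower, with a median of -0.10. Between 10 and 3 days without food, 2246 stems were called in eESC (12.3%) and 12 in gESC (0.0656%), and 9 stems fell in both. Of these 9, 7 were higher and 1 was lower in the medium gate, too few to set against 15.1% and 19.4% of all stems tested.

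The epidermal-leaning list was split after its values had been seen, by libraries outside the comparison. The 1965 stems with eESC_10d above both unsorted libraries were called higher in 174 cases and lower in 174, with a median of 0. Over all stems tested, 15.1% were called higher and 19.4% lower. Most of the 1965 were scarce in both gates, with median levels of 0.0579 to 0.0606 CPM in ISC_medium and 0.0307 to 0.0676 CPM in ISC_high. At such levels a median of 0 does not show equal expression. The 1965 took 0.589, 0.854 and 0.755% of counts in ISC_medium A to C, against 0.699, 0.617, 0.626 and 0.547% in ISC_high A to D, so the gates overlapped. The 893 stems with both unsorted libraries above eESC_10d rose in 626 cases and fell in 16, with a median of 3.60. Their median levels were 2.37 to 3.15 CPM in ISC_medium and 0.169 to 0.368 CPM in ISC_high, so the 2 parts of the list also differed in level. The count of 16 was 10 without ISC_medium B and 8 without ISC_medium C. These 893 took 7.02, 8.15 and 8.47% of counts in ISC_medium, against 0.693, 0.600, 0.818 and 0.679% in ISC_high. Of the 883 epidermal-leaning stems called higher, 626 were thus ones that sorted epidermal cells held at a lower level than whole tissue did.

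Body-column stems were also divided after their values had been seen, by the epidermal-leaning list. The 205 that were also epidermal-leaning were higher in 150 cases and lower in 2, with a median log2 fold change of 4.59, and took 3.28, 3.43 and 3.93% of counts in ISC_medium A to C, against 0.0543, 0.0549, 0.136 and 0.0808% in ISC_high A to D. The other 330 were higher in 124 cases and lower in 12, with a median of 1.19. Over all stems tested, 15.1% were higher and 19.4% lower, with a median of -0.04. The 330 took 0.971, 0.485 and 0.632% of counts in ISC_medium, against 0.518, 0.509, 0.457 and 0.642% in ISC_high, so the gates overlapped in share. Both libraries of unsorted tissue held more of these 330 stems, at 6.12 and 6.75%, than of the 205, at 3.38 and 3.47%.

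**Figure D3:**
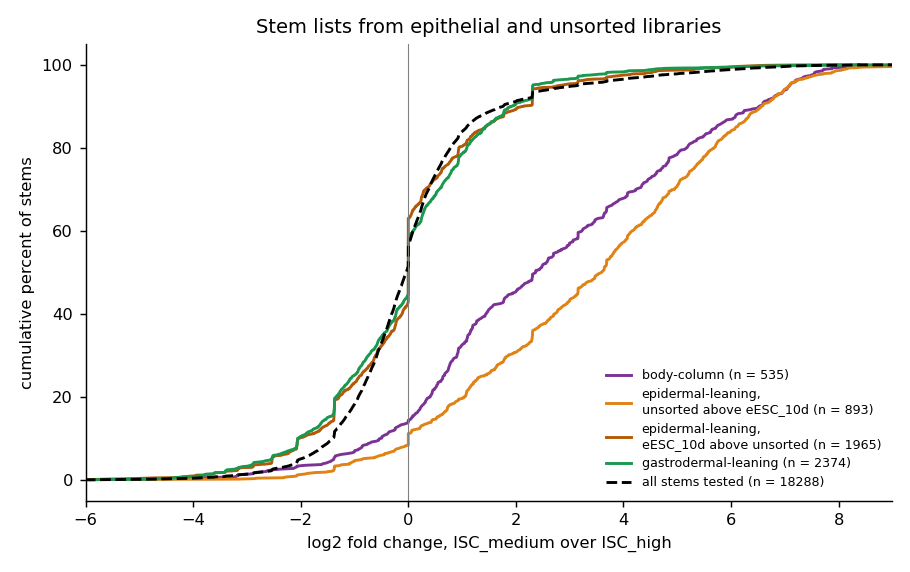
Cumulative percent of stems (vertical axis) against the fitted log2 fold change, ISC_medium over ISC_high, for lists whose rules compare epithelial and unsorted libraries; the dashed line holds all 18288 stems tested. The body-column list (median 2.37) and the epidermal-leaning stems with unsorted tissue above eESC_10d (median 3.60) lie far to the right, while the 1965 epidermal-leaning stems with eESC_10d above both unsorted libraries and the gastrodermal-leaning list (median 0 each) cross the line of all stems near 0. Most stems of these last lists were under 1 CPM in the interstitial libraries.

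The 630 strongly higher stems overlapped these lists, whose rules compare no values of the gates. Of the 630, 470 (74.6%) were epidermal-leaning, 172 (27.3%) were body-column stems, 118 were both and 39 were gastrodermal-leaning, against 17.1, 2.93 and 13% of all stems tested on the 3 lists. The remaining 106 were on neither the epidermal-leaning nor the body-column list. Those 106 had a median of 2.04, 2.03 and 1.33 CPM in ISC_medium A to C, against 0.0338, 0.0290, 0.0614 and 0.0357 CPM in ISC_high A to D. They were seen at 0.378 to 0.654 CPM in eESC_10d, 1.08 to 1.29 CPM in gESC_10d and at 2.70 and 2.67 CPM in the unsorted libraries. For 212 of the 630 (33.7%) the unsorted mean was at least 4-fold above the higher of the eESC_10d and gESC_10d means. The unsorted mean is that of both libraries, so each alone need not reach 4-fold, and means under 0.1 CPM were taken as 0.1. The same held for 4.05% of all stems tested and 0.789% of lower stems.

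The 501 stems at least 4-fold lower in the medium gate were mostly scarce. They took 0.0873, 0.0708 and 0.0803% of counts in ISC_medium A to C, against 0.542, 0.489, 0.480 and 0.532% in ISC_high A to D. Of the 501, 105 (21.0%) were gastrodermal-leaning, 73 (14.6%) epidermal-leaning and 7 (1.40%) body-column stems. Of all stems tested, 13, 17.1 and 2.93% were on these lists. Under 1 CPM in all 7 epithelial libraries of the 10-day groups were 167 of them (33.3%), against 20.8% of all stems tested. With the depth term, in a fit of the same libraries that chose them, 123 of the 501 remained called.

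Stems at the floor in all libraries of 1 gate were counted without a test. There were 123 with at most 3 counts in each ISC_high library and a mean of at least 1 CPM in ISC_medium, and 21 with at most 3 counts in each ISC_medium library and at least 1 CPM in ISC_high. The deeper libraries are those of ISC_high, where a floor of 3 counts is a lower level. After thinning to equal depth the counts were 161 and 23. Without ISC_medium A the count of stems at the floor in that gate was 36, and without ISC_high C the count at the floor in the high gate was 170. Floors, and the interval given below, cover counting error only, because reads lacking molecular identifiers need not stem from separate molecules.

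A rule named 1 stem by fold and 1 by gain in level in each direction, among called stems with at least 10 CPM and no overlap of the gates. By fold, c13624_g2 stood highest: it had 526, 745 and 402 counts in ISC_medium A to C, against 0, 1, 1 and 0 in ISC_high A to D. That is 31.6, 45.1 and 23.3 CPM in ISC_medium, against 0, 0.0290, 0.0307 and 0 CPM in ISC_high, so the high gate was at the floor. The pooled ratio was 2068 with a 95% exact interval of 572 to 17090, and the edgeR quasi-likelihood test gave a log2 fold change of 10.63 ± 0.73 (SE), which depends on the prior count, and an adjusted p of 5.19e-09. It stood at 39.0 and 46.6 CPM in unsorted actin and cnnos1 tissue and at 9.25 to 13.7 CPM in eESC_10d, but at 0.729 to 3.85 CPM in gESC_10d, the same order as for the set of 630.

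By gain in level, c25067_g1 stood first under the same rule. It had 19767, 17702 and 18208 CPM in ISC_medium A to C, against 8998, 8969, 10389 and 10194 CPM in ISC_high A to D. Means were 18559 ± 1076 CPM in ISC_medium (SD, n = 3) and 9637 ± 759 CPM in ISC_high (n = 4). The gates did not overlap, and the log2 fold change was 0.95 ± 0.20 (SE; edgeR quasi-likelihood, adjusted p = 0.00129). Under the depth term it was -0.13 and not called. In 10-day epithelial cells it stood at 9377 to 11480 CPM, and in 3-day ones it spread from 7654 to 17660 CPM.

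Among lower stems that met the same conditions (called, at least 10 CPM, no overlap of the gates), c15222_g1 had the strongest fold. It had 0.540, 0.0606 and 0.405 CPM in ISC_medium A to C, against 31.0, 22.9, 22.6 and 29.2 CPM in ISC_high A to D. Its log2 fold change was -6.27 ± 0.59 (SE; edgeR quasi-likelihood, adjusted p = 1.94e-07). Outside the gates it was low, at 0 to 1.34 CPM in the 13 epithelial libraries and 0.793 and 0.791 CPM in the unsorted ones. Of all 22 libraries, only those of ISC_high held it above 1.34 CPM.

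By loss in level, c26238_g1 stood first among lower stems. It had 4306, 4153 and 4539 CPM in ISC_medium A to C, against 6128, 6024, 6475 and 6823 CPM in ISC_high A to D. The gates did not overlap, and the log2 fold change was -0.55 ± 0.13 (SE; edgeR quasi-likelihood, adjusted p = 0.00277). In a fit of interstitial replicates A to C alone it was -0.33 and not called, with or without the replicate letter as a block. It was also the 1 called lower stem of 1000 CPM and above. Epidermal cells had 4324 to 5085 CPM of it in eESC_10d and gastrodermal cells 6534 to 6875 CPM in gESC_10d.

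Among stems without a call, c26324_g1 had the highest mean. It had 30810, 66848 and 28798 CPM in ISC_medium A to C, against 62924, 97348, 83755 and 60858 CPM in ISC_high A to D. ISC_medium B lay above ISC_high A and D, and the log2 fold change of -0.85 ± 0.67 (SE) was not past the threshold (edgeR quasi-likelihood, adjusted p = 0.369). It ranged from 2975 to 76880 CPM within eESC_10d alone. In a fit with the replicate letter as a block, where only replicates A to C enter, it was -0.84 and called.

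The next, c25830_g1, had 10406, 10412 and 10570 CPM in ISC_medium A to C, against 9281, 7638, 8992 and 9299 CPM in ISC_high A to D. The gates did not overlap, yet the log2 fold change of 0.25 ± 0.18 (SE) did not pass (edgeR quasi-likelihood, adjusted p = 0.328). In a fit of the 7 interstitial libraries alone it was 0.47 and called. With library size as the only scaling it was -0.14, so its direction goes with the scaling.

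**Figure D4:**
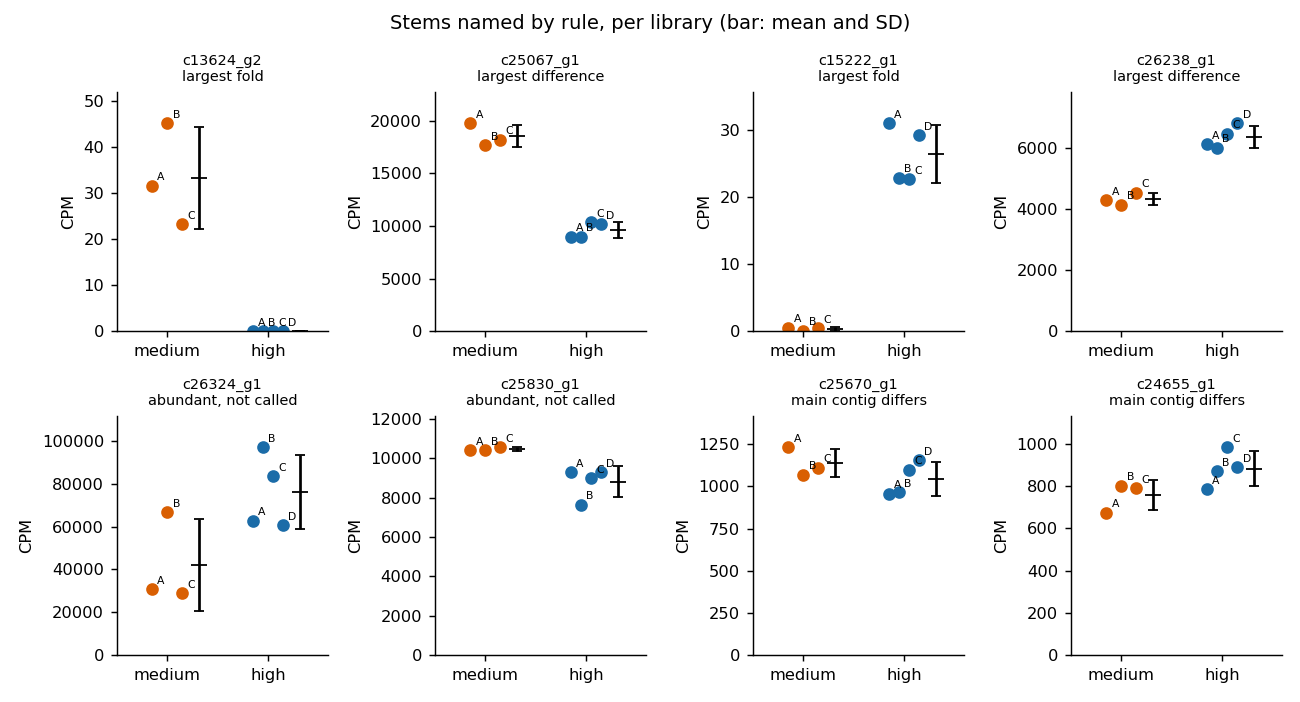
CPM of the 8 stems named by rule in each library of the medium (orange, replicates A to C) and high (blue, replicates A to D) gates, with the mean and SD beside each gate; every vertical axis starts at 0. The gates do not overlap for c13624_g2, c25067_g1, c15222_g1, c26238_g1 and c25830_g1, and overlap for the other 3 stems.

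Contig use could be read where a stem has several contigs, from the authors' estimated counts. Of 7547 tested stems with several contigs, 3869 had the same most abundant contig in all libraries of each gate. That contig differed between the gates for 193 of them (4.99%), of which 36 were called higher, 53 lower and 104 not called as stems. Among those with a constant and equal contig 44.2% were called as stems, against 46.1% of the 193. The 2 most abundant uncalled ones are described next.

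Stem c25670_g1, with 2 contigs, had 1235, 1071 and 1113 CPM in ISC_medium A to C, against 958, 965, 1099 and 1155 CPM in ISC_high A to D. Its level overlapped between the gates (log2 fold change 0.13 ± 0.13 SE, edgeR quasi-likelihood, adjusted p = 0.502). Contig c25670_g1_i01 made up 69.1, 57.6 and 65.1% of it in ISC_medium, against 17.9, 16.4, 13.5 and 23.0% in ISC_high. The shares lay far apart with no overlap.

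Stem c24655_g1, with 3 contigs, had 675, 803 and 792 CPM in ISC_medium A to C, against 784, 871, 986 and 890 CPM in ISC_high A to D (log2 fold change -0.22 ± 0.17 SE, edgeR quasi-likelihood, adjusted p = 0.357). Contig c24655_g1_i02 made up 67.0, 68.9 and 65.9% in ISC_medium, against 34.3, 37.5, 34.0 and 37.6% in ISC_high. Contig c24655_g1_i01 made up 33.0, 31.1 and 34.1% in ISC_medium, against 55.2, 48.2, 64.5 and 50.5% in ISC_high. The stem was called lower with library size alone (-0.61) and with the depth term (-1.02), so the call on its total goes with the setting. Reads shared by near-identical contigs are divided by estimation, so contig shares are less certain than stem sums.

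Stems and contigs were set side by side over the whole table. Tested singly, 6531 of 28522 contigs were called (22.9%). The stem was called in the same direction for 5632 of them, in the opposite one for 119 and not at all for 780. Of 5731 stems with a called contig, 163 had contigs called both ways.

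Starvation time differed between libraries, so calls were also made at 3 days alone and looked up at 5 days. With replicates B and C of both gates, 4700 of 19406 stems were called (24.2%), 2162 higher and 2538 lower. The ratio of ISC_medium A over ISC_high D, both after 5 days without food, took no part in those calls. It had the same sign for 2121 of the higher stems (98.1%) and 2500 of the lower ones (98.5%). Over all 17258 stems with a count in either library of that pair the sign was the same for 79.1%, and over those not called for 71.8%. Higher stems had a median log2 value of 1.95 at 3 days and 1.46 in the 5-day pair, and lower stems -1.26 and -1.06. The 5-day pair is 1 library a gate and differs in depth class like the rest, so these shares carry no test.

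**Figure D5:**
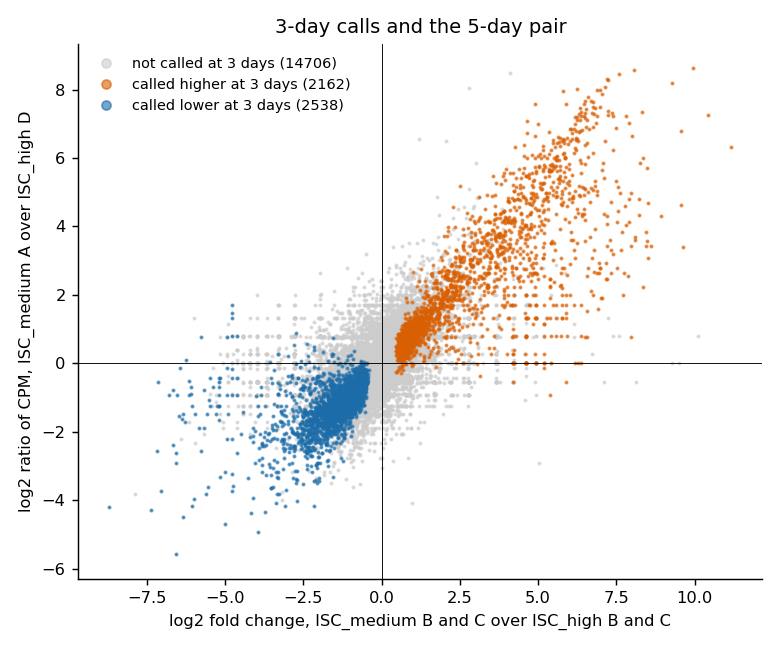
Each point is a stem, with the fitted log2 fold change of ISC_medium B and C over ISC_high B and C (3 days without food) on the horizontal axis and the log2 ratio of CPM of ISC_medium A over ISC_high D (5 days, prior count 2) on the vertical axis. Of the stems called at 3 days, 98.1% of the 2162 higher ones (orange) and 98.5% of the 2538 lower ones (blue) have the same sign in the 5-day pair.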

How the data were processed

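Polyadenylated RNA of sorted cells was sequenced as directional TruSeq libraries, per the labels' protocols. The authors deposited estimated counts per transcript contig, held as whole numbers; the submitters' processing notes name cutadapt 1.11, Salmon 0.7.2 and DESeq2 without their roles, and the transcriptome is not given in the sources used here. A second, normalized table was not used. Counts were summed per stem and tested with edgeR 4.0.16 in R 4.3.3 (quasi-likelihood test, TMM, filterByExpr with a minimum count of 10 and minimum total of 15, 20 sorted libraries as 6 groups, common biological coefficient of variation 0.294). Stems under a Benjamini-Hochberg adjusted p of 0.05 were called. The procedure was tested on simulated data. Alternatives were other scalings, filters, fits and DESeq2 1.42.0. Members and lists were chosen with earlier results of these data known. Named stems were, in each direction, the largest fold change and largest level difference among called stems of at least 10 CPM without overlap, the 2 most abundant uncalled stems, and the 2 most abundant uncalled stems whose main contig differed between the gates. Replicate letters were not taken as pairs: deviations of same-lettered libraries correlated at 0.25, -0.07 and -0.01. Between different letters the values ran from -0.37 (ISC_medium A, ISC_high B) to 0.53 (ISC_medium C, ISC_high B). The next highest were 0.45 (ISC_medium A, ISC_high D) and 0.29 (ISC_medium B, ISC_high C). Whether such libraries shared a preparation was not tested, and no fit paired them.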

Additional observations from a re-analysis of the deposited data

Results flagged for a closer look

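Among the 4 ISC_high libraries, ISC_high C held 0.261% of its counts in the stems at least 16-fold higher in the medium gate, against 0.0693 to 0.0948% in the other 3, and its gap to the nearest library was 0.866 of the whole range. ISC_high B had a median of 0.985 CPM over the stems that were not called, against 0.541 to 0.606 CPM in the other 3, a gap of 0.853 of the range. Both gaps are past Dixon's 95% critical value for 4 libraries. These were 2 of 28 such sets of 4 libraries looked at, and chance gives about 5%.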

How the results depend on the processing

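The count of 6302 calls stayed within 1.5 times under every alternative run except the term for the depth class, with 1613. Leaving out 1 library at a time gave 5200 to 6196 calls, 2356 to 2655 higher and 2706 to 3597 lower. Higher stems numbered 1783 with library size alone and 770 with the depth term. Lower stems numbered 5756 with library size alone, 2154 in the 7 interstitial libraries alone and 843 with the depth term. With the replicate block (letters A to C) there were 1884 lower stems, and 1850 in the same 6 libraries without it, a counterpart chosen after seeing the data. Stem c25067_g1 reversed to -0.13 with the depth term. That term is estimated within gESC_3d, where c25067_g1 had 14630 and 17660 CPM in A and B and 7654 CPM in the deeper C. Stem c25670_g1 reversed to -0.26 with library size alone, where the median of all stems was -0.43, against -0.04 with TMM factors. Beyond these values the cause was not tested. Same-sign calls were 96.9% against ISC_high A, 2 days without food. Floor counts were 47 and 8 with a floor of 1 count, and 107 to 170 and 18 to 36 with a library left out. The epidermal-leaning median was 0 with library size alone, 1.40 in the 7 libraries alone (chosen after seeing the data), 0.11 with a 2-fold and 0 with an 8-fold list threshold, and 0 to 0.46 with a library left out. The body-column median was 2.97, 1.59 and 1.69 with the same 3 choices of libraries and thresholds. Among stems under 1 CPM 14.9% were called, against 34.5% of all tested.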

Other observations

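Library complexity did not follow depth alone. Stems with at least 1 count numbered 24319, 24967 and 27179 in ISC_medium A to C, against 26855, 33484, 29518 and 28128 in ISC_high A to D. ISC_medium C, not the deepest of its gate, had the most in that gate, and ISC_high B had the most in its own.

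Number of contigs in a stem had little bearing on calls. Of stems with 1 contig, 33.1% were called, of those with 2 to 4 contigs 37.0%, and of those with 5 or more 32.3%.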
